A study of Mus musculus with 10 samples.

Results

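The genes described here are Srf, which encodes serum response factor, and 9 genes of the actin cytoskeleton that are widely used as its targets, the actin genes Acta1, Acta2 and Actg2, the actin-binding genes Tagln, Cnn1, Cnn2 and Tpm1, the myosin light chain gene Myl9 and the adhesion gene Vcl. They were chosen by symbol, as smooth muscle type contractile genes together with Srf. All 10 were found among the 20206 genes of the table, each with 1 row, and all 10 passed the filter (a mean of 10 or more over the lines) that left 14354 genes to test. Their values came from RNA sequencing of 10 embryonic stem cell (ESC) lines of wild-type C57Bl/6 mice, which self-renew in culture and were grown with leukaemia inhibitory factor. For 5 lines the mother was fed a low protein diet (LPD, 9% casein) and for the other 5 an isocaloric normal protein diet (NPD, 18% casein), from mating to embryonic day 3.5, when blastocysts were collected. The mothers were 7 to 9 weeks old when mated, and per the methods every line came from a different mother, so that each line is 1 replicate of its diet. The lines were derived on feeder layers of mouse embryonic fibroblasts, and RNA was taken from cells in medium without fibroblasts. The submitters' line numbers are kept, which are 1, 4, 6, 20 and 40 for LPD and 8, 15, 21, 36 and 51 for NPD.

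SRF binds DNA as a dimer at the CArG box, and what it switches on depends on its partner. Myocardin-related transcription factors are held by monomeric actin and move with SRF to genes of actin, actin-binding proteins, myosin and adhesion when actin polymerises, whereas ternary complex factors, which are activated by MAPK phosphorylation, take it to immediate early genes such as those of the Fos and Egr families. SRF also acts on its own gene. In undifferentiated ESCs the smooth and skeletal muscle actins are minor beside beta and gamma cytoplasmic actin, and Acta2, Tagln, Cnn1 and Myl9 are best known as genes of smooth muscle, myofibroblasts and spreading cells.

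The promoters are shown first because the CArG box links these genes. RefSeq promoter windows on GRCm38.p6, from 250 bases before to 50 bases after the transcription start, were at hand for 8 of the 10 genes, all but Tagln and Actg2. A CArG box was searched on both strands as CC, then 6 bases that are each A or T, then GG. It was found in 5 of the 8 windows (62.5%), against 1.81% of the 27025 genes with a window. The 5 windows that hold it are printed 5′ to 3′ on the strand of the gene, with the CArG boxes in capitals. Srf lies at chr17:46556113-46556412 on the minus strand, Acta1 at chr8:123894726-123895025 on the minus strand, Cnn2 at chr10:79988350-79988649, Myl9 at chr2:156775214-156775513 and Vcl at chr14:20929148-20929447, the last 3 on the plus strand.
Srf: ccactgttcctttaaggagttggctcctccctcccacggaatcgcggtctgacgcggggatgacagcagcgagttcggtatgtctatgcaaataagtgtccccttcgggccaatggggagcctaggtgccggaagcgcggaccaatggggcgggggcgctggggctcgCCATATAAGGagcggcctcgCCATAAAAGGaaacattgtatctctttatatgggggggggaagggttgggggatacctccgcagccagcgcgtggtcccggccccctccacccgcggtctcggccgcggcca
Acta1: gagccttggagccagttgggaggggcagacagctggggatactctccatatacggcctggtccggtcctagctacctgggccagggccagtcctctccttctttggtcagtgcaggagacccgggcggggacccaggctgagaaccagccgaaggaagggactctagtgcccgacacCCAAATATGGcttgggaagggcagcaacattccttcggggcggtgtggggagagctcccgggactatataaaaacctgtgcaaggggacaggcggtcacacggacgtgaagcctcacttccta
Cnn2: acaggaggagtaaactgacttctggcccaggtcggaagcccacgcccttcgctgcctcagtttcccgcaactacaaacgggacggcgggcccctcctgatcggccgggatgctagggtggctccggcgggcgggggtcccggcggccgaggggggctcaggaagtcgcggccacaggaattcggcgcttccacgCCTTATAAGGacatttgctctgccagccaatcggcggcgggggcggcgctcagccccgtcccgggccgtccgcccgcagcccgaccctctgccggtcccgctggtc
Myl9: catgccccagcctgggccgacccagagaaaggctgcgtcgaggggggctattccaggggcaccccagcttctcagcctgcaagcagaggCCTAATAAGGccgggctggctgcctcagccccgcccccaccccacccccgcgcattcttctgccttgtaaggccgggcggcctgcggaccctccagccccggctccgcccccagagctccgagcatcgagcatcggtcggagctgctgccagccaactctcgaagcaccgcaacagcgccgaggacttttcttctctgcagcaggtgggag
Vcl: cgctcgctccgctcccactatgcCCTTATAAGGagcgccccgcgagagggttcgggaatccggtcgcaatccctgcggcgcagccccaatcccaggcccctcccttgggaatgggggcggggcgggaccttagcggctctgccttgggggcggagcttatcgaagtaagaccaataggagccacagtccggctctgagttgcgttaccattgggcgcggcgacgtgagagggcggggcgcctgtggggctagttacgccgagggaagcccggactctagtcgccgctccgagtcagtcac
Srf is the only 1 of the 8 with a pair of boxes, which begin 82 and 62 bases before the start. The box begins 73 bases before the start in Acta1, 56 in Cnn2, 161 in Myl9 and 227 in Vcl. Cnn2 and Vcl hold the same 10 letters, CCTTATAAGG, while those of the other genes differ at the A and T positions. The windows of Acta2, Cnn1 and Tpm1 hold no match to these letters, which says nothing of boxes that lie further away or that depart from the rule by a base. The letters GGAATG, the core at which TEAD factors bind, stand in 4 of the 8 windows (Acta1, Acta2, Tpm1 and Vcl) and in 16.6% of all genes. TGANTCA, the site of AP-1, is in 0 of the 8 and in 8.97% of all genes, and TATAAA is in 2 of the 8, Srf and Acta1, and in 15.7% of all genes. No match overlaps a CArG box. Among other lists of SRF-related genes, a CArG box was in both windows of other actin genes, 1 of 19 windows of regulators of SRF, 4 of 25 (16%) of other cytoskeletal targets, 1 of 7 of targets of ternary complex factors and 0 of 9 of differentiated smooth muscle genes.

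**Figure D1:**
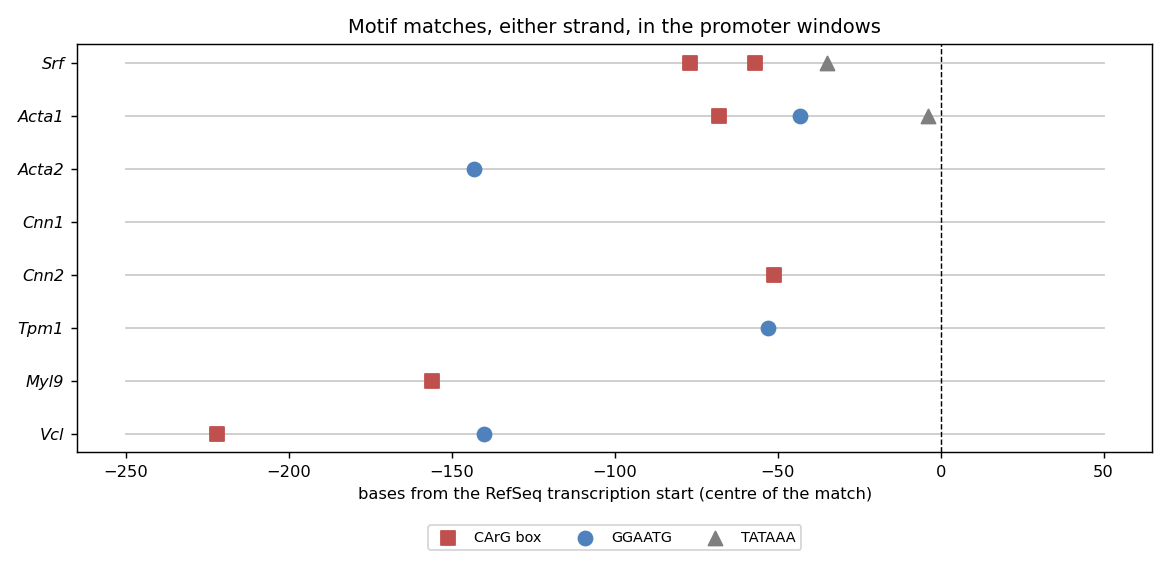
Positions of CArG boxes, GGAATG and TATAAA on either strand in the promoter windows of the 8 genes that have one (x axis, bases from the RefSeq transcription start, at the centre of each match; grey lines, the windows; dashed line, the start). Srf has 2 CArG boxes, Acta1, Cnn2, Myl9 and Vcl have 1 each, and Acta2, Cnn1 and Tpm1 have none.

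Some facts of the series bear on these values. The deposited value is a normalized estimated count per gene. Depth, estimated from what 1 read is worth in each line, was 20299875 to 23183848 read equivalents in the NPD lines, and 21820513, 5846102, 12330944, 24264346 and 11246691 in LPD lines 1, 4, 6, 20 and 40. The labels give every line as male. The Y-linked gene Ddx3y nevertheless stood at 7.70 in NPD line 15 and at 174 in LPD line 4. In the other 8 lines it was 1110 to 1493. The diet difference of Srf and the median of the members are therefore also given without NPD line 15 and LPD line 4. No gene passed an adjusted p of 0.1 between the diets (limma, Benjamini-Hochberg), with 721 of the 14354 genes at an unadjusted p under 0.05. Of these 408 were higher and 313 lower in LPD, which is 56.6% higher, against 40.2% when every line was scaled to the same total and 46.2% with no filter on the mean. The ESC markers Pou5f1, Nanog and Sox2 were high in all lines, between 5141 and 30420, and did not pass the test between the diets.

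Levels were compared between the members per kilobase of exon. The length was that of all annotated exons of a gene joined, not of the transcripts present, and the order depends on it. Before the division the mean was 2874 in Tpm1, with 6485 bases of exon, and 1652 in Tagln, with 1988 bases. Tagln had the highest mean level, at 831 ± 761 per kilobase (SD, n = 10 lines), followed by Cnn2 at 599 ± 302, Srf at 519 ± 222 and Tpm1 at 443 ± 228. Next came Acta2 at 286 ± 346, Vcl at 242 ± 128, Acta1 at 159 ± 281 and Myl9 at 158 ± 84.4. Cnn1 at 36.04 ± 38.4 and Actg2 at 8.27 ± 3.14 were lowest. Within a line the order held in 10 of 10 lines only between Myl9 and Cnn1, in 9 between Tagln and Cnn2, and in 9 between Cnn1 and Actg2. In the mean difference between neighbours on the log2 scale, 4 of the 9 pairs were further apart than the SD over the lines. These were Tpm1 above Acta2 by 1.154 ± 0.97, Vcl above Acta1 by 1.34 ± 1.22, Myl9 above Cnn1 by 2.34 ± 0.72 and Cnn1 above Actg2 by 1.84 ± 1.12 (SD, n = 10 lines). The other 5 pairs did not differ beyond that spread. Acta2 was above Vcl in 4 of 10 lines and Acta1 above Myl9 in 3 of 10, and LPD line 6 held 1213 per kilobase of Acta2 and 953 of Acta1 against medians of 172 and 58.3 over the lines.

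**Figure D2:**
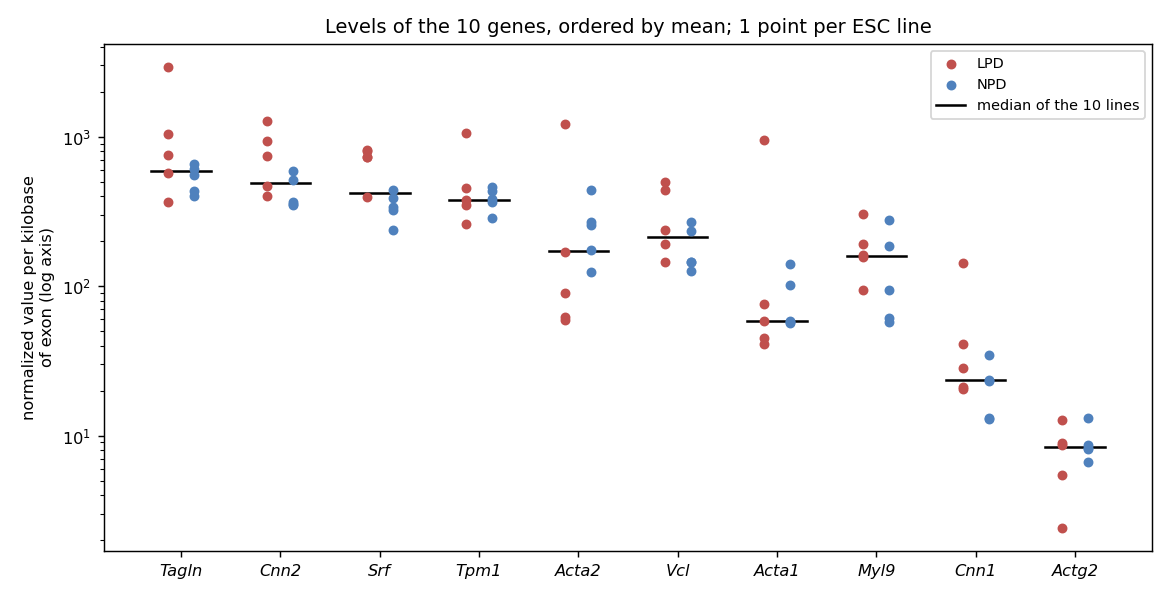
Normalized value per kilobase of exon on a log axis for the 10 genes, ordered by their mean, with 1 point per line (LPD red, NPD blue) and the median of the 10 lines as a bar. Tagln stands at the top and Actg2 at the bottom, and LPD line 6 gives the highest point in 8 of the 10 genes.

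Srf (chr17:46548329-46556175, minus strand) showed the clearest difference between the diets. Its values were 2121, 2314, 2107, 2347 and 1136 in LPD (lines 1, 4, 6, 20 and 40, in this order throughout), and 689, 933, 1118, 976 and 1276 in NPD (lines 8, 15, 21, 36 and 51). LPD lines 1, 4, 6 and 20 were close to each other and above every NPD line, while LPD line 40 lay among the NPD lines. At least 4 LPD lines above every NPD line was seen in 3.09% of all genes tested, and in Srf alone of the members. The mean was 2005 ± 498 in LPD and 998 ± 219 in NPD (SD, n = 5), which is a log2 ratio of LPD over NPD of 0.99 (the difference of the mean log2 values, with a standard error, SE, of 0.21) or 1.98-fold. Srf ranked 16 of 14354 by p, yet its adjusted p was 0.341 (limma, Benjamini-Hochberg), and the exact permutation test over the 252 assignments gave a two-sided p of 0.0159, where the smallest that 5 lines against 5 allow is 0.00794. Leaving out any 1 line gave 0.86 to 1.18. Without LPD line 40, the only LPD line among the NPD lines, it was 1.18 and its adjusted p 0.00984 (limma), under the threshold. In that fit 40 genes in all passed. With any other line left out the adjusted p of Srf was 0.523 to 0.903 (limma). Without LPD line 4 and NPD line 15, the lines low in Ddx3y, the log2 ratio was 0.91 (limma, unadjusted p = 0.00327, adjusted p = 0.998). With depth as a covariate it was 1.04 (limma, unadjusted p = 0.00191, adjusted p = 0.999).

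Over the members as a whole the difference was less uniform. Of the 10 genes, 8 had a higher mean log2 value in LPD and 2, Acta2 and Actg2, a lower one, and the median log2 ratio was 0.61 against 0.00 over all genes tested. At an unadjusted p under 0.05, 2 of the 10 were higher in LPD, Srf and Cnn2, and 0 were lower, where 2.84% of all genes were higher and 2.18% lower. None passed adjustment, as for the 0% of all genes that did. The diet groups overlapped in all 10 members, against 1.02% of all genes in which they did not. The median fell to 0.34 without LPD line 6 and rose to 0.83 without LPD line 1. Without LPD line 4 and NPD line 15 the median was 0.55, with Srf and Cnn2 at an unadjusted p under 0.05. Without LPD line 6 the members at an unadjusted p under 0.05 were Srf and, in the other direction, Acta2. Without LPD line 1 there were 4, Srf, Cnn2, Vcl and Tagln, and without NPD line 51 there were 4, Srf, Cnn2, Vcl and Myl9. Srf was the only 1 left when LPD line 20 or NPD line 8, 15 or 36 was left out.

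**Figure D3:**
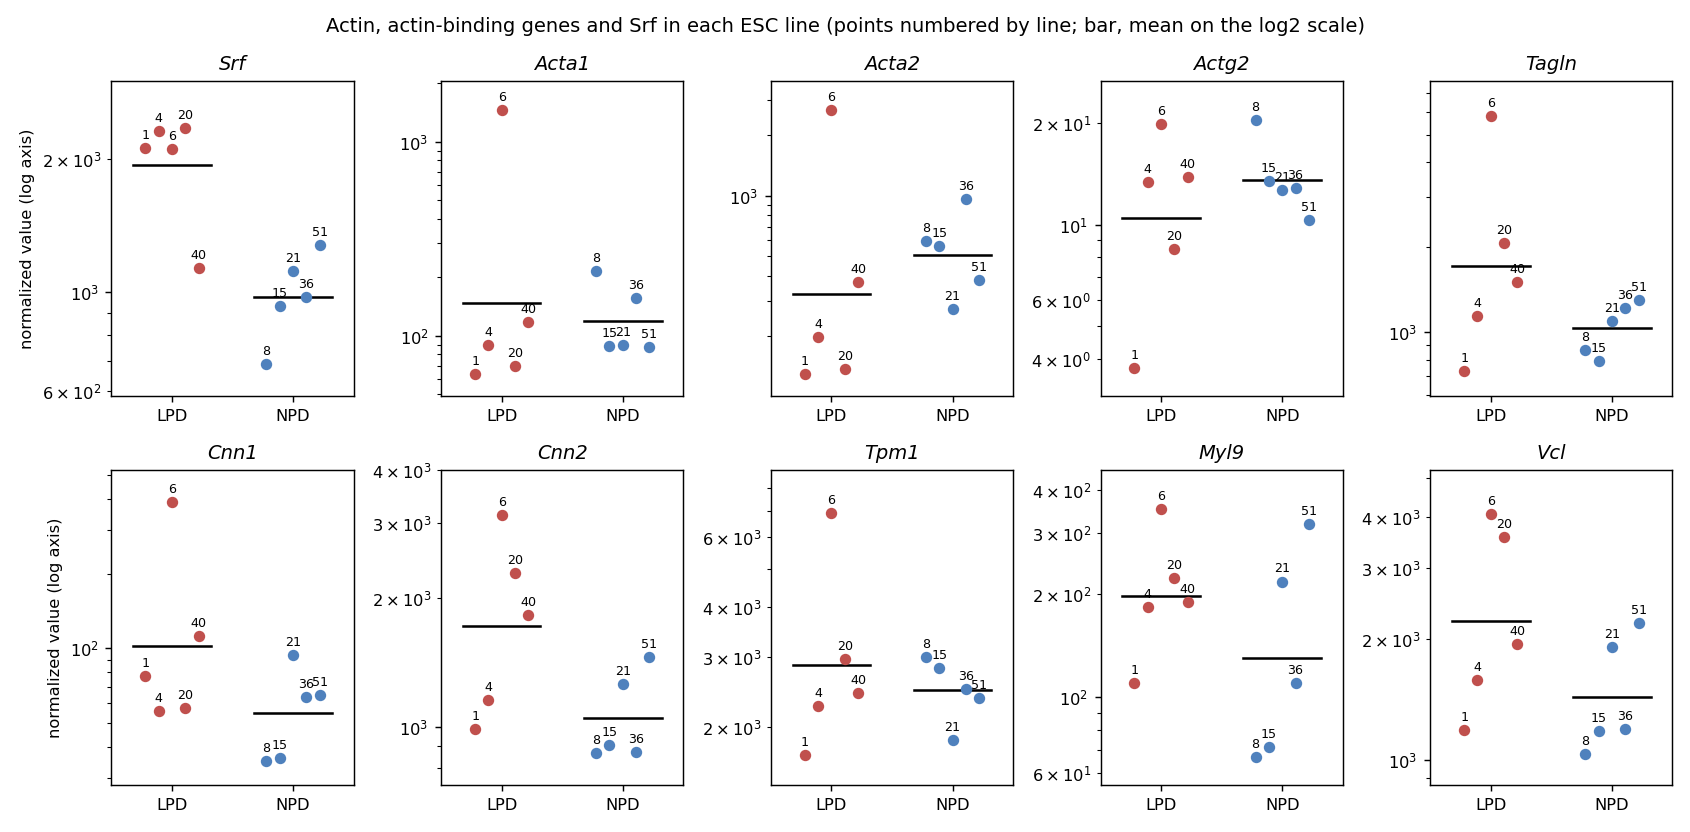
Normalized value of each gene on a log axis in the 5 LPD lines (red) and 5 NPD lines (blue), with points numbered by line and a bar at the mean on the log2 scale. In Srf 4 LPD lines sit above all NPD lines, and in Acta1, Acta2, Cnn1, Tagln and Tpm1 LPD line 6 sits far above the other 9 lines.

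The muscle actins varied more between lines of a diet than between the diets. Acta1 (chr8:123891769-123894751, minus strand), the skeletal muscle alpha actin, had values of 63.3, 89.99, 1463, 69.4 and 117 in the LPD lines, and 214, 88.8, 89.2, 157 and 87.4 in the NPD lines. LPD line 6 held 6.83 times the next highest line, and the other 4 LPD lines were within or below the range of the NPD lines. The log2 ratio was 0.31 (SE 0.71, adjusted p = 0.996 by limma) and turned to -0.52 without LPD line 6, and it was -0.0115 with depth as a covariate.

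Acta2 (chr19:34241090-34255590, minus strand), the smooth muscle alpha actin, had values of 130, 198, 2663, 136 and 372 in the LPD lines, and 593, 559, 273, 966 and 382 in the NPD lines. LPD line 6 was again the highest of all, at 2.76 times the highest NPD line, but LPD lines 1, 4 and 20 lay below every NPD line. The log2 ratio was -0.65 (SE 0.69, adjusted p = 0.994). When LPD line 6 was left out it was -1.41 with an unadjusted p of 0.00271 and an adjusted p of 0.702, and the 4 remaining LPD lines had a mean of 209 ± 113 (SD, n = 4). Without that line the fibroblast genes Col1a1 and Col1a2 also had log2 ratios of -1.73 and -1.88. With depth as a covariate the ratio of Acta2 was -1.05 (adjusted p = 0.999).

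Actg2 (chr6:83512905-83536265, minus strand), the smooth muscle gamma actin, was close to the limit of detection. It had values of 3.76, 13.4, 19.8, 8.45 and 13.8 in the LPD lines and 20.4, 13.4, 12.6, 12.9 and 10.3 in the NPD lines, which correspond to 4.65 to 14.3 read equivalents in LPD and 12.1 to 26.1 in NPD. A difference was not detectable at this depth, with a log2 ratio of -0.34 (SE 0.43, adjusted p = 0.994) that ranged from -0.56 without LPD line 6 to -0.03 without LPD line 1. With depth as a covariate it was -0.79 (unadjusted p = 0.135). These 3 actins share few 31-base stretches with other actin genes, at most 3.72% of their own, in Acta1. The cytoplasmic actins were far more abundant, and Actg1 was 41034 ± 10976 in LPD and 30499 ± 4609 in NPD (SD, n = 5), a log2 ratio of 0.40 (unadjusted p = 0.0445, adjusted p = 0.987). Of the 3 other actin genes tested, 1 was higher at an unadjusted p under 0.05, as were 2.84% of all genes, and the median log2 ratio was 0.34.

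Tagln (chr9:45929619-45936058, minus strand) encodes transgelin, a small protein that binds actin filaments. Its values were 732, 1141, 5814, 2066 and 1503 in the LPD lines, and 862, 792, 1098, 1217 and 1296 in the NPD lines. LPD lines 6, 20 and 40 were above every NPD line and LPD line 1 was below all of them. LPD over NPD gave a log2 ratio of 0.73 (SE 0.42, adjusted p = 0.994), 0.29 when LPD line 6 was left out and 1.04 when LPD line 1 was. In the annotation 62.2% of the 31-base stretches of Tagln also occur in another gene, most of them in an antisense transcript of the same locus, Gm48529. The libraries are not stated to keep the strand, so that reads of the pair cannot be told apart. Gm48529 is not among the 20206 genes with values, so whether any of its reads were counted for Tagln is not known.

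The calponins, which bind actin and restrain myosin, are Cnn1, the smooth muscle form, and Cnn2, which is found in many cell types. Cnn1 (chr9:22099216-22109630, plus strand) had values of 77.2, 55.7, 390, 57.5 and 112 in the LPD lines and 35.1, 36.1, 94.1, 63.3 and 64.9 in the NPD lines. LPD lines 6 and 40 were above every NPD line, and the other 3 LPD lines fell within the NPD range. Its log2 ratio came to 0.88 (SE 0.49, adjusted p = 0.994) and 0.40 without LPD line 6.

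Cnn2 (chr10:79988584-79996062, plus strand) had values of 988, 1155, 3127, 2297 and 1822 in the LPD lines and 865, 905, 1258, 871 and 1453 in the NPD lines. LPD lines 6, 20 and 40 were above every NPD line, and LPD lines 1 and 4 were within the NPD range. The mean was 1878 ± 873 in LPD and 1070 ± 269 in NPD (SD, n = 5), a log2 ratio of 0.72 (SE 0.28). Its unadjusted p was 0.0251 and its adjusted p 0.952 (limma), and the exact permutation test gave 0.0794. The log2 ratio ranged from 0.50 without LPD line 6 to 0.92 without LPD line 1. LPD line 40, which was low in Srf, was thus among the high lines for Cnn2 and Tagln.

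Tpm1 (chr9:67022590-67049406, minus strand) encodes tropomyosin, which lies along the actin filament and sets the access of myosin to it. Its values were 1699, 2255, 6893, 2963 and 2431 in the LPD lines and 2993, 2817, 1846, 2481 and 2365 in the NPD lines. LPD line 6 held 2.30 times the next highest line, LPD line 1 lay below every NPD line, and LPD lines 4, 20 and 40 were within the NPD range. On the log2 scale the ratio was 0.21 (SE 0.30, adjusted p = 0.994) and -0.11 without LPD line 6.

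Myl9 (chr2:156775420-156781658, plus strand) encodes a regulatory light chain of non-muscle and smooth muscle myosin. Its values were 110, 183, 352, 222 and 189 in the LPD lines and 67.0, 71.6, 217, 110 and 320 in the NPD lines. Myl9 was the member in which the NPD lines differed most from each other, with a coefficient of variation of 69.5%, against 42.1% in LPD. The other 9 members were the other way round, more variable between the LPD lines. Its log2 ratio was 0.60 (SE 0.43, adjusted p = 0.994), from 0.36 without NPD line 8 to 0.92 without NPD line 51, and 0.27 with lines weighted by their spread (limma array weights).

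Vcl (chr14:20929398-21033676, plus strand) encodes vinculin, which couples adhesion sites to actin filaments. Its values were 1183, 1579, 4083, 3575 and 1942 in the LPD lines and 1031, 1181, 1904, 1194 and 2184 in the NPD lines. LPD lines 6 and 20 were above every NPD line. The log2 ratio was 0.63 (SE 0.33, adjusted p = 0.994), 0.41 when LPD line 6 was left out and 0.85 when LPD line 1 was. Of the 31-base stretches of Vcl 25.3% also occur in Ap3m1, which overlaps its end on the opposite strand and was 1296 ± 193 in LPD and 1274 ± 149 in NPD (SD, n = 5), so reads there cannot be assigned without the strand.

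**Figure D4:**
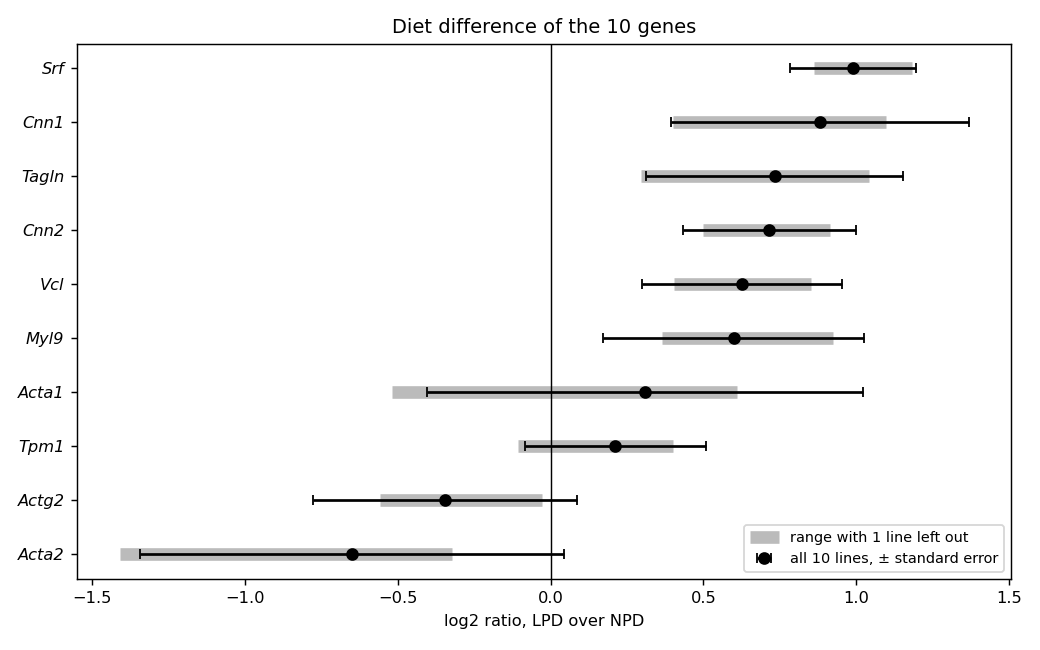
Log2 fold change of each gene, LPD against NPD (x axis), with all 10 lines (points, bars are ± 1 standard error) and the range when 1 line is left out (grey). Srf lies at 0.99 with the narrowest error, Acta2 at -0.65 and Actg2 at -0.34 lie below 0, and the grey ranges of Acta1 and Tpm1 cross 0.

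LPD line 6 was the highest of the 10 lines in 8 of the 10 members, and above every NPD line in 9. Over all genes tested this line was the highest in 13.3%, and in 13.5% of those whose mean was 100 or more. Relative to the median of the NPD lines, LPD line 6 held 16.4 times as much Acta1, 6.16 times as much Cnn1, 5.30 times as much Tagln and 4.76 times as much Acta2. It held 3.45 times as much Cnn2, 3.42 times as much Vcl, 3.21 times as much Myl9 and 2.78 times as much Tpm1. For Srf the ratio was 2.16, lower than in LPD lines 1, 4 and 20, at 2.17, 2.37 and 2.41. The lowest line was LPD line 1 in 5 members, among them all 3 actins, and NPD line 8 in the other 5. Over all genes tested LPD line 1 was the lowest in 10.5% and NPD line 8 in 8.53%. LPD lines 6 and 20 were the 2 highest lines in 3 members, so the lines did not keep 1 order over the members.

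Markers of other cell types were read in the same lines. Of the 14 fibroblast markers, which stand for the feeder cells, 11 were tested, of which 0 were at an unadjusted p under 0.05 in either direction, and they had a median log2 ratio of -0.85. Their summed value was 1094 to 4184 in LPD and 929 to 6879 in NPD, highest in NPD line 15 and then in LPD line 6. Col1a1 was 1704 in LPD line 6 and 131 to 348 in the other LPD lines, and 2709 in NPD line 15 and 227 to 1016 in the other NPD lines. Col1a2 was 1121 and 1442 in LPD line 6 and NPD line 15. Thy1 was 135 and 216 in these 2 lines and above 0 in all lines, while Lum, an extracellular matrix gene of fibroblasts, was listed at 0 in 7 of the 10 lines and was 1.39 in LPD line 6. NPD line 15, with the most fibroblast marker RNA, held 792 of Tagln and 36.1 of Cnn1, near the bottom of the range of each, but 559 of Acta2 and 2817 of Tpm1, in the upper part of the range. The lines above the 10-line mean of log2 Acta2 were LPD line 6 and NPD lines 8, 15 and 36, and the same 4 lines were above the mean for the fibroblast list, by 1.12, 0.56, 2.32 and 0.13. The part of fibroblasts in the values of LPD line 6 and of Acta2 was not tested, and more cells of a type and more RNA per cell cannot be told apart in these bulk samples.

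Of the 8 trophectoderm and simple epithelium genes 7 were tested, with 0 at an unadjusted p under 0.05 in either direction and a median log2 ratio of 0.17. Their summed value was 11238 in LPD line 6, 3148 to 4867 in the other LPD lines and 3125 to 6638 in NPD. Krt8, a keratin of simple epithelia, was 4577 in LPD line 6 and 519 to 1282 in the other 9 lines, whereas Tfap2c was 2030 in this line and 1440 to 3663 in the others. The part of these cells in the values of LPD line 6 was not tested. Of 10 differentiated smooth muscle genes 8 were tested, of which 4 had a higher and 4 a lower mean log2 value in LPD. At an unadjusted p under 0.05, 2 were higher and 0 lower, against 2.84% and 2.18% of all genes, and the median log2 ratio was -0.13. Of the defining genes, Myocd, the coactivator myocardin, was at or near 0, with 0 to 3.19 over the 10 lines. Myh11, smooth muscle myosin, was low but above 0 in every line, at 7.57 to 31.4. Myh11 was highest in NPD line 36, at 31.4, and next in LPD line 6, at 29.5. The 2 higher genes were Smtn, encoding smoothelin, with a log2 ratio of 0.40 (unadjusted p = 0.0141, adjusted p = 0.839) and Des, encoding desmin, with 0.51 (unadjusted p = 0.0358, adjusted p = 0.957).

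Of 21 upstream regulators of SRF tested, 14 had a higher and 7 a lower mean log2 value in LPD, with a median log2 ratio of 0.02. At an unadjusted p under 0.05 there was 1, which was higher in LPD, as were 2.84% of all genes. The coactivators Mrtfa and Mrtfb, named for their role after their values were seen, had log2 ratios of 0.01 (SE 0.10) and -0.25 (SE 0.16).

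A list of 28 other cytoskeletal SRF targets was chosen with earlier results of these data known. It had 8 genes higher and 0 lower in LPD at an unadjusted p under 0.05, against 2.84% and 2.18% of all genes. By sign alone 25 were higher and 3 lower, where 50.5% of all genes were higher, and the median log2 ratio was 0.21. None passed adjustment, and the median was 0.12 without LPD line 6. Csrp1, a LIM protein of actin bundles, was 1927, 1929, 4735, 2706 and 2189 in the LPD lines and 1119 to 1902 in the NPD lines. Its diet groups did not overlap, as in 1.02% of all genes tested. The log2 ratio of Csrp1 was 0.75 (adjusted p = 0.681 by limma). Its exact permutation p was 0.00794, the smallest possible, which follows from the lack of overlap. Tpm4, a tropomyosin of non-muscle cells, had a log2 ratio of 0.48 (unadjusted p = 0.0049, adjusted p = 0.665) and Myl12b, a non-muscle myosin light chain, 0.27 (unadjusted p = 0.0107, adjusted p = 0.839). In this list LPD line 6 was the highest line in 18 of 28 genes (64.3%), against 13.3% of all genes tested.

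The 10 targets of ternary complex factors, which include immediate early genes, followed other lines. Of these, 7 were higher and 0 lower in LPD at an unadjusted p under 0.05, against 2.84% and 2.18% of all genes. None passed adjustment, and this list too was chosen with earlier results of these data known. All 10 had a higher mean, and the median log2 ratio was 1.76, from 1.17 without LPD line 4 to 2.37 without LPD line 40. Nr4a1, a nuclear receptor, had values of 1419, 1756, 1483, 2825 and 871 in the LPD lines and 680 to 1080 in the NPD lines (log2 ratio 0.89, unadjusted p = 0.00295, adjusted p = 0.573). Egr3, a zinc finger factor, had values of 345, 527, 50.8, 110 and 4.54 in the LPD lines and 4.69 to 11.3 in the NPD lines. Egr4, of the same family, had 182, 241, 37.6, 60.3 and 9.49 in the LPD lines and 3.04 to 23.9 in the NPD lines. In both, as in Srf, LPD lines 1, 4, 6 and 20 were above every NPD line and LPD line 40 was not. Averaged over the list, LPD lines 1 and 4 lay 2.65 and 2.68 above the mean of the 10 lines on the log2 scale, LPD lines 6 and 20 lay 0.28 and 0.35 above it, and LPD line 40 lay at -1.35. LPD line 6 was the highest line in 0 of these 10 genes, and in 13.3% of all genes tested. The 9 members other than Srf had averages of -0.79, -0.28, 1.81, -0.03 and 0.15 in LPD lines 1, 4, 6, 20 and 40. LPD lines 1 and 4 were thus the lowest of the LPD lines in this average, but LPD line 20 was below LPD line 4 in Acta1, Acta2 and Actg2 and below LPD line 1 in Cnn1.

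**Figure D5:**
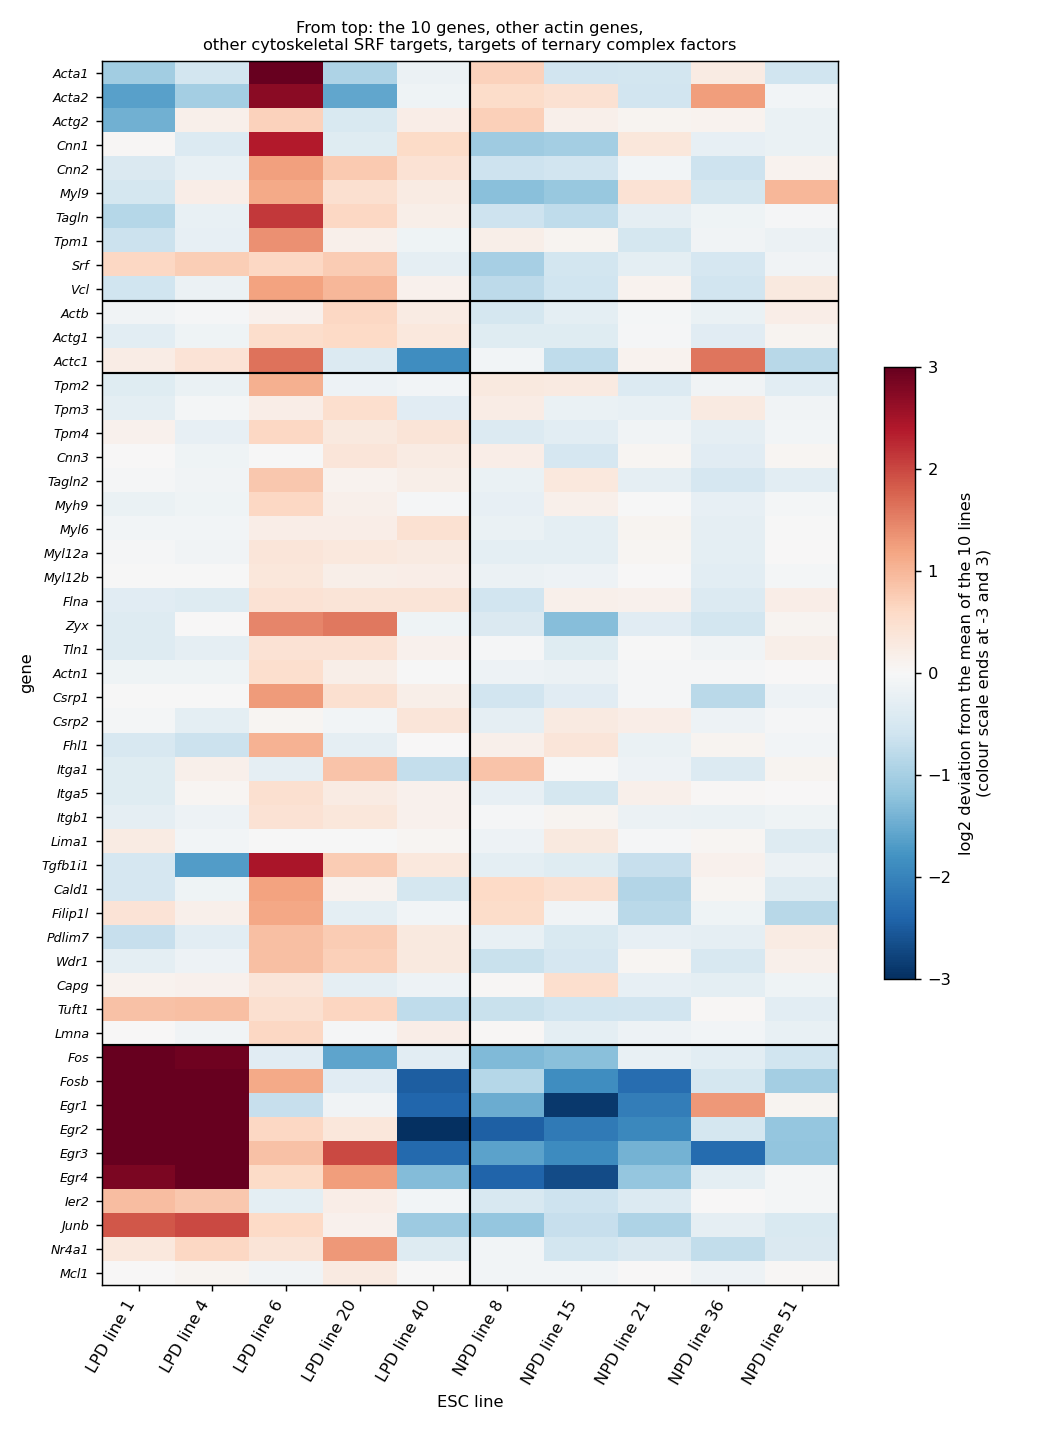
Log2 deviation of each gene (rows) from its mean over the 10 ESC lines (columns), red above and blue below, with the colour scale ending at -3 and 3. From top to bottom are the 10 genes described here, 3 other actin genes, 28 other cytoskeletal SRF targets and 10 targets of ternary complex factors, and LPD line 6 is red over the cytoskeletal genes while LPD lines 1 and 4 are red over the bottom block.

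How the members moved together was read from the log2 values over the 10 lines, as Pearson's r and Spearman's coefficient for all 45 pairs, with permutation p adjusted over the pairs. For r 9 pairs had an adjusted p under 0.05, for the Spearman coefficient 5, and for both 4. These 4 were Cnn2 with Vcl, Tagln with Vcl, Myl9 with Vcl and Cnn2 with Myl9. Cnn2 and Vcl gave r = 0.97 (permutation test, adjusted p = 0.00225) and a Spearman coefficient of 0.95 (permutation test, adjusted p = 0.00473), and r was 0.91 without the 2 lines farthest from the median of Cnn2, 0.95 without LPD line 6 and 0.97 with the diet means removed. Tagln and Vcl gave r = 0.88 (permutation test, adjusted p = 0.00345) and a Spearman coefficient of 0.89 (permutation test, adjusted p = 0.015), and 0.87 without LPD line 6. Without LPD line 6 the 6 pairs among Vcl, Cnn2, Tagln and Myl9 had r from 0.70 to 0.95. Acta1 and Acta2 gave r = 0.88 (permutation test, adjusted p = 0.00473) and a Spearman coefficient of 0.79 (permutation test, adjusted p = 0.0586), with 0.86 when the 2 lines farthest from the median of Acta1 were left out and 0.79 without LPD line 6. Without that line Actg2 had r = 0.77 with Acta1, 0.68 with Acta2 and 0.59 with Tpm1. Some other pairs moved more. Acta1 and Tpm1 gave r = 0.89 (permutation test, adjusted p = 0.0485) with a Spearman coefficient of 0.56 (permutation test, adjusted p = 0.228), but 0.25 without the 2 farthest lines, so that relation rests on those lines. Over the 36 pairs without Srf the median r was 0.64, and 0.12 without LPD line 6.

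For Srf r ran, over its 9 pairs, from -0.46 with Actg2 to 0.59 with Vcl, with a median of 0.43, and no pair passed adjustment. With the diet means removed the median was 0.08. Without LPD line 6 r was -0.88 with Acta2, -0.78 with Acta1 and -0.68 with Actg2, against -0.33, 0.02 and -0.46 over all lines. The genes whose pattern was most like that of Srf, among 10324 genes with a mean of at least 100 that are no members, were Klf5, a Krüppel-like factor of the ESC state (r = 0.96), Maff, a small Maf factor (r = 0.96), Zfp330 (0.95), Srsf7, a splicing factor (0.94), and Zfp819 (0.93). Those most like Tagln were Actn1, encoding alpha-actinin, which crosslinks actin filaments (r = 0.98, and 0.92 without LPD line 6), Fbrs (0.96), Ercc1, a DNA repair gene (0.95), Card10 (0.94) and Ccdc6 (0.94). These r were the highest of many and are given over the same 10 lines as a description.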

How the data were processed

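RNA sequencing covered 10 ESC lines, 5 for each diet. Per the labels and the methods, the authors removed adaptors with cutadapt, kept reads of good base quality and quantified transcripts with Salmon on GRCm38 release 88 (the labels also name sleuth 0.30.0). The authors deposited 1 normalized signal per gene and line, which the table's name gives as DESeq2-normalized. It is an estimated count and not whole reads, and how transcripts were summed to genes is not given in the sources used here. All columns were mapped to lines.

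Of 20206 genes, 19891 were matched to GENCODE M21. The value of 1 read was found in each line from genes with 1 transcript, in which 90.2% to 99.7% of low values were whole multiples within 0.15. Over all genes only 67.0% to 73.0% were, so no count model was used. Depth limits low genes most in LPD lines 4, 6 and 40.

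Values were taken as log2(value + 1), and genes with a mean of at least 10 went into limma 3.58.1 under R 4.3.3, fitted on diet alone with a trend of the variance on the mean, and p was adjusted over all genes (Benjamini-Hochberg). Fold changes on this scale understate changes of low genes. Members were also tested by exact permutation, two-sided. Relations among members used 100000 permutations, for which replicates are lines. The test was tried on simulated data with known changes. Promoters are from RefSeq (GRCm38.p6), and shared sequence was counted as 31-base stretches of GENCODE transcripts. Figures were drawn with matplotlib 3.10.9 in Python 3.11.15, and scipy 1.17.1, pandas 2.3.3 and numpy 2.4.6 did the rest.

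The members and the 11 lists of related genes and cell type markers were chosen with earlier results of these data known. Named were every member and, of each list, at most 3 higher and 3 lower genes, those of smallest p under 0.05, otherwise the 2 with the highest mean, the defining markers, and the 5 genes most like Tagln and Srf, except 1 upstream regulator that is not reported here. Alternatives were pseudocounts of 0.1 and 10, no filter, a mean of at least 100, the same total, quantile normalization, no trend, robust eBayes, array weights, depth as a covariate, and each line left out. Leaving out LPD lines 6 and 40, and LPD line 4 with NPD line 15, was chosen after seeing the data.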

Additional observations from a re-analysis of the deposited data

Results flagged for a closer look

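In 6 of the 20 groups of 5 lines, 1 line stood far from the other 4, with a gap above 0.71 of the range of the untransformed values. In LPD line 6 this was so for Acta1 at 1463, Acta2 at 2663, Cnn1 at 390, Tagln at 5814 and Tpm1 at 6893, each the highest of the LPD lines. In LPD line 40 it was so for Srf at 1136, the lowest of the LPD lines. No NPD line stood apart in this way for any member. The gaps were not read on the log2 scale used for the other tests. LPD line 6 gives 5 of the 6 groups, so the groups are not independent and their number was not set against chance.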

How the results depend on the processing

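The 10 diet differences kept their direction under the other pseudocounts, filters, scalings and variance models, except that Cnn1 and Actg2 had no value when only means of 100 or more were kept, and the sign changed for Acta1 with depth as a covariate (-0.0115) and for Acta1 and Tpm1 without LPD line 6. With a line left out, Acta1 ranged from -0.52 to 0.61 and Tpm1 from -0.11 to 0.40. The genes passing an adjusted p of 0.1 were 0 in all, 1 with array weights, 0 to 40 with a line left out (40 without LPD line 40), and 40 without LPD lines 6 and 40. The members at an unadjusted p under 0.05 were 2, 1 with array weights, and 1 to 4 with a line left out. Cnn2 was past that threshold in limma and not by the exact test. The median of the smooth muscle genes was -0.13, 0.46 when only means of 100 or more were kept, 0.15 with array weights, -0.42 with depth as a covariate, and -0.40 to 0.084 with a line left out. Of the counts and medians under the alternatives 139 stayed close to their value and 17 moved, and the cause of these moves was not tested. No paired analysis was possible because the LPD and NPD lines share no line numbers. Depth limits Actg2 most.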

Other observations

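Other lineage genes were read in the same lines. Of 13 striated muscle genes 8 were tested, with 0 higher and 0 lower in LPD at an unadjusted p under 0.05 by limma and a median log2 ratio of 0.09. Ttn, encoding titin, was 152 ± 52.1 in LPD and 164 ± 13.4 in NPD (SD, n = 5), and was lowest in LPD line 6 at 70.4. Actn2, encoding the alpha-actinin of the Z-disc, was 64.4 ± 15.4 in LPD and 74.9 ± 18.1 in NPD and was also lowest in LPD line 6, at 46.3. Tnnc1, encoding cardiac troponin C, and the myosin heavy chain genes Myh6 and Myh7 were instead highest in LPD line 6, at 66.1, 66.2 and 73.5, against 3.72 to 15.4, 14.1 to 55.5 and 6.69 to 45.0 in the other 9 lines.

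All 8 primitive endoderm genes tested had a higher mean log2 value in LPD, as did 50.5% of all genes. They had 0 at an unadjusted p under 0.05 and a median log2 ratio of 0.51. NPD line 15 was the lowest of the 10 lines in all 8, against 11.3% of all genes tested. Averaged over these genes on the log2 scale, that line lay at -2.72 from the mean of the 10 lines. The other NPD lines lay at -0.76 to 1.03 and the LPD lines at -1.25 to 1.30, so the direction rests largely on NPD line 15. Col4a1, encoding a basement membrane collagen, was 10299, 6046, 1789, 4172 and 6389 in LPD lines 1, 4, 6, 20 and 40 and 1269 to 7409 in NPD. Lama1, encoding a laminin chain, was 7178, 4676, 1068, 2915 and 5752 in the LPD lines and 518 to 4354 in NPD. LPD line 1, lowest in 5 cytoskeletal members, was the highest of the 10 lines for both, and LPD line 6 the lowest LPD line. Of 7 mesoderm genes 1 was tested, Hand1, with a log2 ratio of -0.47 (adjusted p = 0.994 by limma). Over the 10 ESC genes the median was -0.02 with 0 at an unadjusted p under 0.05, and Dppa5a, the most abundant, was 29273 ± 4330 in LPD and 28059 ± 5270 in NPD (SD, n = 5).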
